A study of Mus musculus with 6 samples.

Results

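The sites described here are the 14704 peaks called on chromosomes 1 to 19 for Runx1 chromatin immunoprecipitation sequencing (ChIP-seq) at day 56, of 15009 peaks in the day 56 list. The other 305 peaks lay on chromosome X, and 0 lay on the Y chromosome or the mitochondrial genome. All called peaks were taken, with no threshold beyond the one used in the deposited list. The cells were GFP-positive lung fibroblasts of Col1a2-CreERT2;mTmG mice, in which a Cre recombinase that is switched on by tamoxifen and driven by the Col1a2 promoter turns on green fluorescence, so that the sort takes cells that had used this collagen promoter. The labels give bleomycin injury as the treatment, and the cells were fixed in 1% formaldehyde for 10 min. The study holds 1 Runx1 library and 1 input library, which is chromatin sequenced without immunoprecipitation, for each of a sham group, day 14 and day 56. All carry the same genotype and fixation. With 1 library per condition no difference between conditions can be tested, and the labels do not give the number of mice behind the library.

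RUNX1 is a transcription factor that binds DNA through its Runt domain, with CBFB as a partner that does not itself contact DNA. It is best known from blood cell formation, and its relatives RUNX2 and RUNX3 act in bone and in immune and nerve cells. Its usual recognition sequence is TGTGGT. A ChIP-seq peak marks where fragments from the immunoprecipitated chromatin pile up above the input, which can reflect contact with DNA by the factor itself or through other proteins. Gene starts of the kind used in most cells are rich in CpG and often hold the CCAAT box, bound by NF-Y, and the GC box GGGCGG, bound by SP and KLF factors.

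Stretches of 150 bases upstream of 10 gene starts show the kind of DNA under these peaks. They are taken from RefSeq on GRCm38.p6 (mm10) and read 5′ to 3′ along the gene. Capitals mark CCAAT or its other strand, ATTGG, and TGTGGT or its other strand, ACCACA. The first 5 belong to starts outside other genes with some of the highest pileups, where pileup is the height of overlapping fragments at the summit, scaled down by the peak caller to the depth of the input. The next 2 have the highest pileups among starts with TGTGGT in the stretch. The last 3 are a start of Runx1 itself and the starts of the AP-1 genes Fos and Junb.
Rmnd5a: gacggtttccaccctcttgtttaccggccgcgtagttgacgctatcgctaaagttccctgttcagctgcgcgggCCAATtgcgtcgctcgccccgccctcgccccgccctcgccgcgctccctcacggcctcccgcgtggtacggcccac
Coq10b: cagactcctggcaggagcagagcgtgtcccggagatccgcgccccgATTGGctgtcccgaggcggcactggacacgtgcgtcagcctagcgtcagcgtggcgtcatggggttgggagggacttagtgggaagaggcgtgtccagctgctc
Hmgb2: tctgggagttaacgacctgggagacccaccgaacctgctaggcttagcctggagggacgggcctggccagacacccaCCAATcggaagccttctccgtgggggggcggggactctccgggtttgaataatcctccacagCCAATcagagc
Nmt2: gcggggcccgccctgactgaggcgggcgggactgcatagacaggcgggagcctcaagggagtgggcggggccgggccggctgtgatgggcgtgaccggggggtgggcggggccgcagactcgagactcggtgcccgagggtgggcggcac
Bcl10: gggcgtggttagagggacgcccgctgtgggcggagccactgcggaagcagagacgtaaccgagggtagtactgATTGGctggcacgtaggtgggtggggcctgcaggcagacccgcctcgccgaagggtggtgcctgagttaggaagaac
Slc20a1: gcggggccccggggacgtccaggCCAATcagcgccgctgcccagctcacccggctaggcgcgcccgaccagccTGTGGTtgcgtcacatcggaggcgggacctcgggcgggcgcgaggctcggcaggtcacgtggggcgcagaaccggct
B4galt1: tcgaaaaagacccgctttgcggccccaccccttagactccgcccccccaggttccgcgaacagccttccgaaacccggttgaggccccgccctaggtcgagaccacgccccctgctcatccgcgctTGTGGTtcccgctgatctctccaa
Runx1: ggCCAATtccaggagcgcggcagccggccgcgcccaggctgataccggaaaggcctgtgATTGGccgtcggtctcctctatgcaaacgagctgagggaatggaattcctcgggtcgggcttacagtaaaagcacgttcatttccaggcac
Fos: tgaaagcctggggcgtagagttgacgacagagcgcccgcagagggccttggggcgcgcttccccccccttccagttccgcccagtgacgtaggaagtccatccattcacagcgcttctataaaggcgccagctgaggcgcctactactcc
Junb: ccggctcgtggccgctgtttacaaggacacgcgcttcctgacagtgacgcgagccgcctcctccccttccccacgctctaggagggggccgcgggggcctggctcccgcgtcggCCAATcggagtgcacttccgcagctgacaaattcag
The stretches lay at chr6:71440638-71440787 (Rmnd5a, minus strand), chr1:55052620-55052769 (Coq10b, plus strand), chr8:57511693-57511842 (Hmgb2, plus strand), chr2:3284062-3284211 (Nmt2, plus strand), chr3:145924112-145924261 (Bcl10, plus strand), chr2:129198623-129198772 (Slc20a1, plus strand), chr4:40853985-40854134 (B4galt1, minus strand), chr16:92697330-92697479 (Runx1, minus strand), chr12:85473740-85473889 (Fos, plus strand) and chr8:84978749-84978898 (Junb, minus strand). The Hmgb2 and Runx1 stretches held 2 CCAAT matches each, on either strand. Those of Rmnd5a, Coq10b, Bcl10, Slc20a1 and Junb held 1 each, and those of B4galt1 and Fos none. The Nmt2 stretch also held none, but it held 5 GC boxes at a GC content of 77.3%. TGTGGT was present only in the 2 stretches chosen for it, Slc20a1, a phosphate transporter, and B4galt1, a galactosyltransferase.

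The day 56 Runx1 library held 49669125 tags and its input 19949187, 2.49 times fewer. The larger library was scaled to the smaller, so each ChIP fragment added 0.402 to the pileup. Thus 1 unit of pileup stands for 2.49 ChIP fragments, and pileups and backgrounds below are in such scaled fragments. The median pileup was 23, with an interquartile range of 17 to 33. The top 1% of peaks started at a pileup of 62, and the highest reached 361. The median fold enrichment over background was 6.78 and the highest 30.5. Expected background, recovered here from each listed p-value and pileup, had a median of 2.40 scaled fragments, and 1412 peaks (9.60%, 95% Wilson interval 9.14 to 10.1) sat at the genome-wide floor of 1.6. Intervals throughout cover counting error only.

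The very highest pileups were sites where the input was high too. The highest peak, a pileup of 361, covered 5796 bp at chr17:39843010-39848805 in Rn18s-rs5, a pseudogene copy of ribosomal RNA. Its expected background was 89.3, so that its fold enrichment was 4.01. The next was inside Lars2, the mitochondrial leucyl-tRNA synthetase, with a pileup of 215 over a background of 45. A peak 2 bp from Hjurp, a chaperone of the centromeric histone, reached 184 over 18. A site at chr3:5860546-5860795, 109355 bp from the nearest listed gene, reached 181 over 29. Peaks inside Filip1l (167) and Zc3h7a (128) also stood on backgrounds of 36 and 18. In all, 17 peaks (0.116%) had a background over 10, and 9 of the 10 highest pileups and 14 of the 100 highest were among them. All 17 also overlapped a peak in the sham list and in the day 14 list, as did 96.4% and 99.4% of all 14704 day 56 peaks. Their folds ran from 2.93 to 9.78, and 5 of them had the summit within 1 kb of a gene end.

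Below those sites, the strongest peaks stood at gene starts. Rnf44, a RING finger protein, had the highest pileup with a low background: 99 over 3.15, a fold of 24.1, at chr13:54693687-54694738, with the summit 44 bp upstream of the start. Zfp78, a zinc finger protein, followed with 83, and Rmnd5a, a subunit of the CTLH ubiquitin ligase, with 80. Between them a peak of 82, over a background of 7, lay 81 bp from the pseudogene Gm10060. Dnpep, an aspartyl aminopeptidase, and Ralgapa2, a regulator of Ral GTPases, each reached 79. Coq10b, needed for coenzyme Q function, Nmt2, which adds myristate to proteins, and Hmgb2, a chromatin protein that bends DNA, each reached 78. Add3, a protein of the membrane skeleton, reached 77. Hmgb2 had the highest fold of all peaks, 30.5, since its background was at the floor of 1.6. The summits at Rmnd5a, Coq10b, Nmt2 and Hmgb2 lay 136, 95, 193 and 61 bp upstream of the start, inside or just outside the stretches printed above. The 10 highest folds also included Acsl1, which activates long-chain fatty acids (26.6), Adam9, a membrane metalloprotease (25), Dcbld2 (24.8) and the thiamine transporter Slc19a2 (24.6). One of them lay far from any named gene, on chromosome 8 at 20122122 to 20122488, with a pileup of 71, a fold of 27.7 and the nearest listed gene, the pseudogene Gm21811, 14012 bp away.

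**Figure D1:**
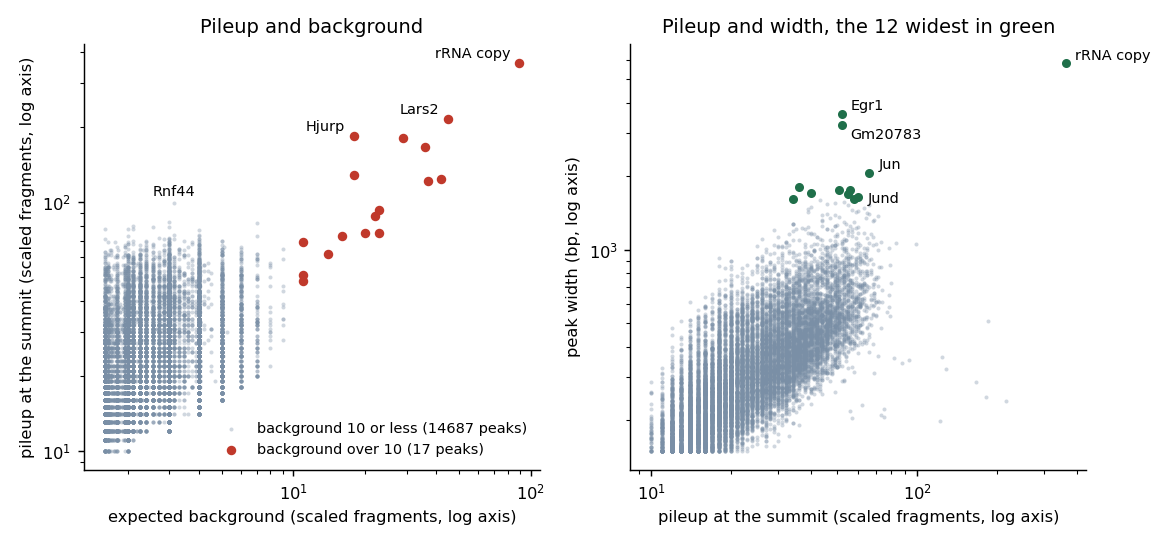
Left, each of the 14704 peaks by expected background and pileup in scaled fragments, both on log axes, with the 17 peaks of background over 10 in red. Right, the same peaks by pileup and width in bp on log axes, with the 12 widest in green. The rRNA copy, Lars2 and Hjurp stand high in both pileup and background, while Rnf44 reaches 99 over 3.15.

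Wider peaks had higher pileups, and the 10 widest included those at Egr1, Fos, Jun, Junb, Jund, Dusp1 and Nr4a1. The median width was 307 bp, with an interquartile range of 221 to 437 bp. The narrowest possible width, 150 bp, which is the fragment length of the library, was that of 293 peaks (1.99%), and 150 peaks (1.02%) were wider than 1 kb. Width and pileup had a Spearman rho of 0.741 over the 14704 peaks of this library. Both come from the same fragments, and the value is given as a description.

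After the rRNA copy, the widest peak was 3607 bp over Egr1, a zinc finger factor of the early growth response, with a pileup of 52. The next with a named gene was 2061 bp over the end of Jun that holds its start, pileup 66. Tsen34, a subunit of the tRNA splicing endonuclease, had 1806 bp. Junb had 1758 bp, Fos 1756 bp, the phosphatase Dusp1 1701 bp, the nuclear receptor Nr4a1 1695 bp and Jund 1640 bp. The Jund peak lay inside the gene and did not reach its start, with the summit 1107 bp past that start. Jun, Junb, Jund and Fos are subunits of AP-1. Their pileups were 66, 51, 60 and 56, and that of Dusp1 was 40, above the median but under those of Rmnd5a or Hmgb2. A peak of 3249 bp near the unnamed model Gm20783 was the widest elsewhere.

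At short genes such a peak covered much of the gene. Peaks covered 80.5% of the 1.84 kb of Junb, 57.0% of Jund, 55.2% of Egr1, 53.5% of Jun, 43.0% of Dusp1 and 36.1% of Fos. Of 18732 coding genes of 1.5 kb or more, 281 had at least 10% of their length covered. The other genes above 40% were named after their values were seen: Ier2 at 57.8%, the cytokine receptor gene Crlf2 at 45.9%, the TWEAK receptor gene Tnfrsf12a at 42.9% and Pnrc1 at 40.4%.

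Peaks sat mostly at the ends of genes. The summit lay within 1 kb of an end of a RefSeq gene for 8688 peaks, or 59.1% (58.3 to 59.9). A further 3885 (26.4%) lay inside a gene further than 1 kb from any end. Outside genes, 1028 (6.99%) lay 1 to 10 kb away, 1039 (7.07%) 10 to 100 kb away, and 64 (0.435%) further than 100 kb. Pileup followed position. The median pileup was 27 near gene ends, 19 inside genes and 16 for the 64 most distant. Split by pileup into quartiles of 3676 peaks, the share within 1 kb of a gene end was 36.5%, 48.3%, 67.7% and 83.8% from the lowest quartile (pileup 10 to 17) to the highest (33 to 361). The share inside genes but away from their ends was 38.2% in the lowest quartile and 12.4% in the highest. Median background was 2.40 near gene ends and 2.25 inside genes.

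The end was far more often the start than the other end. RefSeq start sites with their strand were at hand for 18 of the 19 chromosomes, which held 14258 of the peaks. Of these, 7562 (53.0%) had the summit within 1 kb of a start and 6429 (45.1%) within 250 bp. Among the 7562, 74.4% of summits were upstream, with a median position of 48 bp before the start, and the fullest 50 bp was the one just upstream, with 1953 summits. Of 12752 coding genes longer than 5 kb, 5872 (46.0%) had a summit within 1 kb of the start and 308 (2.42%) within 1 kb of the other end. Some 19.7% of the summits near starts lay within 1 kb of starts on both strands, so that no single gene can be assigned to them.

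**Figure D2:**
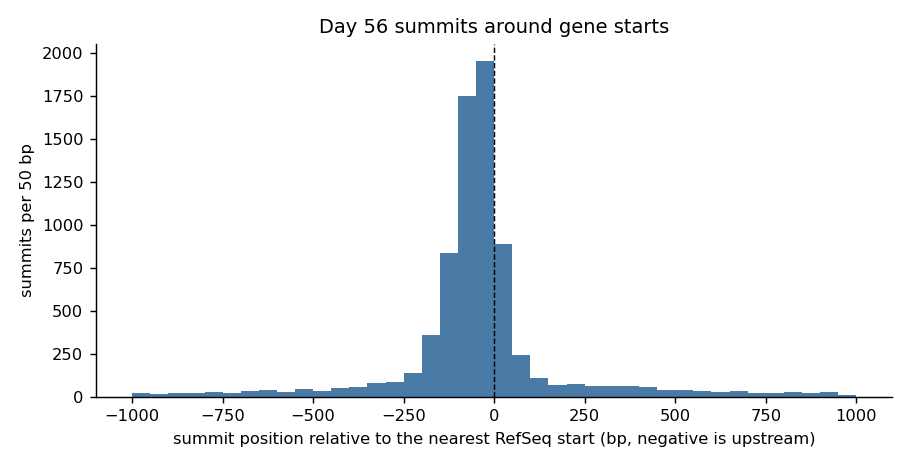
Number of day 56 summits per 50 bp by position relative to the nearest RefSeq start, negative values being upstream, within 1 kb. The highest bar, 1953 summits, covers the 50 bp just upstream of the start, and the median is 48 bp before it.

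Far from genes, peaks were fewer and weaker but did occur. Of the 10 highest pileups further than 10 kb from any gene, the first 2 (181 and 88) stood on high backgrounds of 29 and 22, and a peak 14.1 kb from Klrb1c (51) on 11. Beyond these, 1 peak 590 kb from F2rl3, the nearest named coding gene and too far to be assigned, had a pileup of 58 over 2.40. A peak 10.1 kb upstream of Slc38a2, an amino acid transporter, reached 52 at a fold of 16.5. A peak next in that order after the 10 lay 17.1 kb upstream of Col1a2, the collagen gene whose promoter drives the Cre of these mice. It had a pileup of 49 over a background of 4.35, beside a median background of 2.40 over all peaks, and a fold of 9.42. This peak was named only after its values were known.

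The RUNX motif was about as frequent at weak as at strong starts, while CCAAT and the GC box differed between them. The 31365 windows used run from 250 bases before a start to 50 after it, and cover 25720 genes; windows of alternative starts overlap and are not independent. Matches were counted on both strands, and the motifs searched were TGTGGT and the variant TGCGGT for RUNX, TGANTCA for AP-1, GGGCGG for SP and KLF, CCAAT for NF-Y, CCGGAAGT for ETS factors and TGACGTCA for the cAMP response element (CRE). A summit lay in 7251 windows, and 21592 had no peak within 1 kb. TGTGGT was in 10.9% of windows with a summit, in 19.3% of those without a peak, and in 16.7% of all windows. Windows with a summit had a median GC content of 63.7% against 49.3%, so the sets with and without a peak differ in composition. Among windows with 10 or more CpG, TGTGGT was in 10.5% of 6921 with a summit and in 11.8% of 4957 without a peak. Over the pileup quartiles it was in 11.4%, 11.6%, 9.0% and 11.4% of windows. The variant TGCGGT was in 11.3% and 10.6% of the CpG-rich windows with and without a peak.

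CCAAT was more frequent at higher pileup: it was in 30.2%, 36.3%, 49.4% and 60.7% of windows from the lowest to the highest quartile, and in 27.8% of CpG-rich windows without a peak, beside 37.3% of all windows. More than 1 match was found in 35% of windows of the highest quartile, in 7.5% of the lowest and in 6.50% of the CpG-rich windows without a peak. In the highest quartile the median match lay 90 bp before the start, and in CpG-rich windows without a peak 96 bp before it. GGGCGG went from 67.0% to 85.2% over the quartiles, against 59.2% in CpG-rich windows without a peak and 36.0% of all windows. CCGGAAGT was in 11.2% of CpG-rich windows with a summit and 4.10% without a peak, and stayed between 9.32% and 11.9% over the quartiles (3.95% of all windows). TGACGTCA was in 4.70% and 2.26% of the same 2 sets (1.83% of all), and TGANTCA in 3.50% and 4.76% (7.85% of all). Median GC content was 62.3% in the lowest and 64.7% in the highest quartile.

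Within windows that hold a summit, matches of most motifs were denser near it, but not those of either RUNX motif. CCAAT had 4.07 matches per kb within 50 bp of the summit and 1.79 elsewhere in the window. GGGCGG had 8.88 and 4.98, CCGGAAGT 0.611 and 0.297, TGACGTCA 0.325 and 0.0749, and TGANTCA 0.156 and 0.125. TGCGGT had 0.364 and 0.400, and TGTGGT had 0.310 within 50 bp and 0.417 elsewhere. Summits gathered just upstream of the start, and these densities were not matched for position. In CpG-rich windows without a peak, CCAAT was also most frequent 75 to 50 bp before the start, with 5.37 matches per 100 windows. How much of the contrast follows position was not tested. Densities near the summit are given for day 56 only. For the other libraries, which were called separately, only shares by pileup quartile were counted. CCAAT was in 29.4% of the lowest and 60.3% of the highest quartile in sham, and in 29.2% and 61.8% at day 14. TGTGGT was in 11.3% of the highest quartile in both. That was slightly above its share of the lowest quartile in sham and slightly below it at day 14. The sham and day 14 lists overlapped 96.4% and 99.4% of the day 56 peaks, so they are not separate support. Peaks outside these windows were not searched for motifs, and no match says only that these letters are not in the window.

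**Figure D3:**
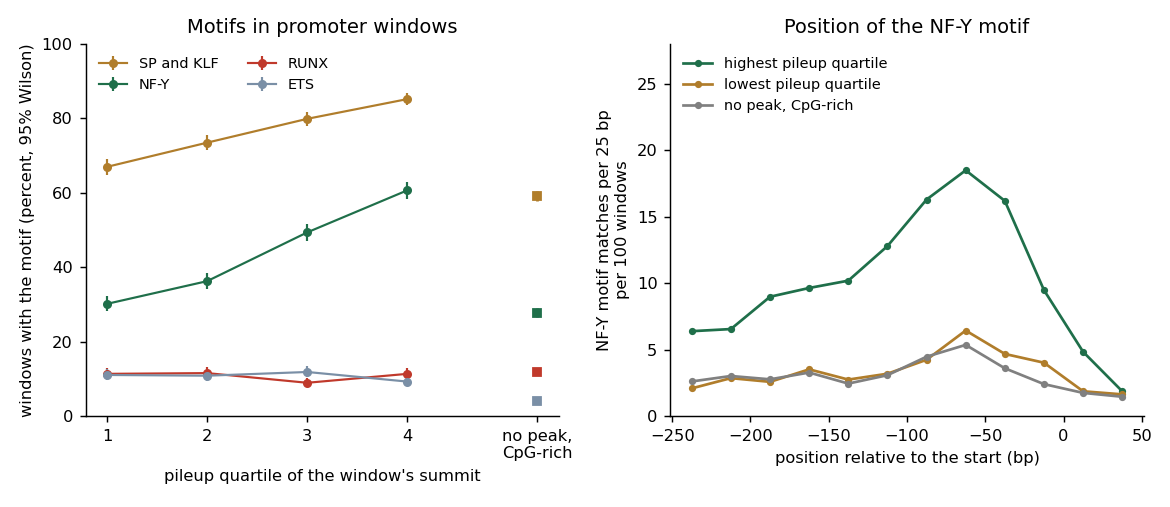
Left, percent of promoter windows with each motif by pileup quartile of the summit (1 lowest) and, as squares, in CpG-rich windows without a peak, with 95% Wilson intervals. Right, NF-Y motif matches per 25 bp and 100 windows by position from the start. On the left NF-Y goes from 30.2% to 60.7% over the quartiles while RUNX lies between 9.0% and 11.6%.

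Most peaks stood alone, but some runs were dense. The median distance from a peak to the nearest other summit was 20.3 kb, and 5811 peaks (39.5%, 38.7 to 40.3) had another within about 13 kb. Joining neighbours within that distance left 8893 lone peaks and 2386 clusters of 2 or more, of which 88 held 5 or more (549 peaks, 3.73%). Peaks of the larger clusters were not higher: their median pileup was 21, against 24 for lone peaks. They were also less often near gene ends, 40.4% against 62.1%.

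The clusters with the most peaks held different kinds of genes. The cluster with the most peaks, 17 in 44.7 kb on chromosome 8 from 70673034 to 70717686, ran across Lsm4, an RNA-binding protein of the spliceosome, Jund and Iqcn. Its highest peaks, 60 and 53, were over Jund and at Lsm4, while 10 further summits inside Iqcn were between 12 and 20. The second held 16 peaks in 75.8 kb, from Vasp, an actin regulator, to the DNA repair gene Ercc1, with Fosb, another AP-1 subunit, between them; its pileups ran from 14 to 40. The third, 12 peaks in 55.3 kb on chromosome 13, lay among 15 histone genes, and 11 of its summits were within 1 kb of a gene end, with pileups of 11 to 28. The fourth, 11 peaks in 24.9 kb, ran from Rnaseh2a over Prdx2 and Junb to Hook2, and peaks covered 28.8% of it. In it the 3 highest pileups, 51, 46 and 40, were at Junb, just beyond it and at Hook2. The fifth, 10 peaks in 54.2 kb, spanned 11 genes from Tmem115 to Ifrd2, including the tumour suppressor Rassf1 (52) and the hyaluronidases Hyal1, Hyal2 and Hyal3. Equal in number was a run of 10 in 27.3 kb over Atp5d, Midn and the cold-induced Cirbp.

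**Figure D4:**
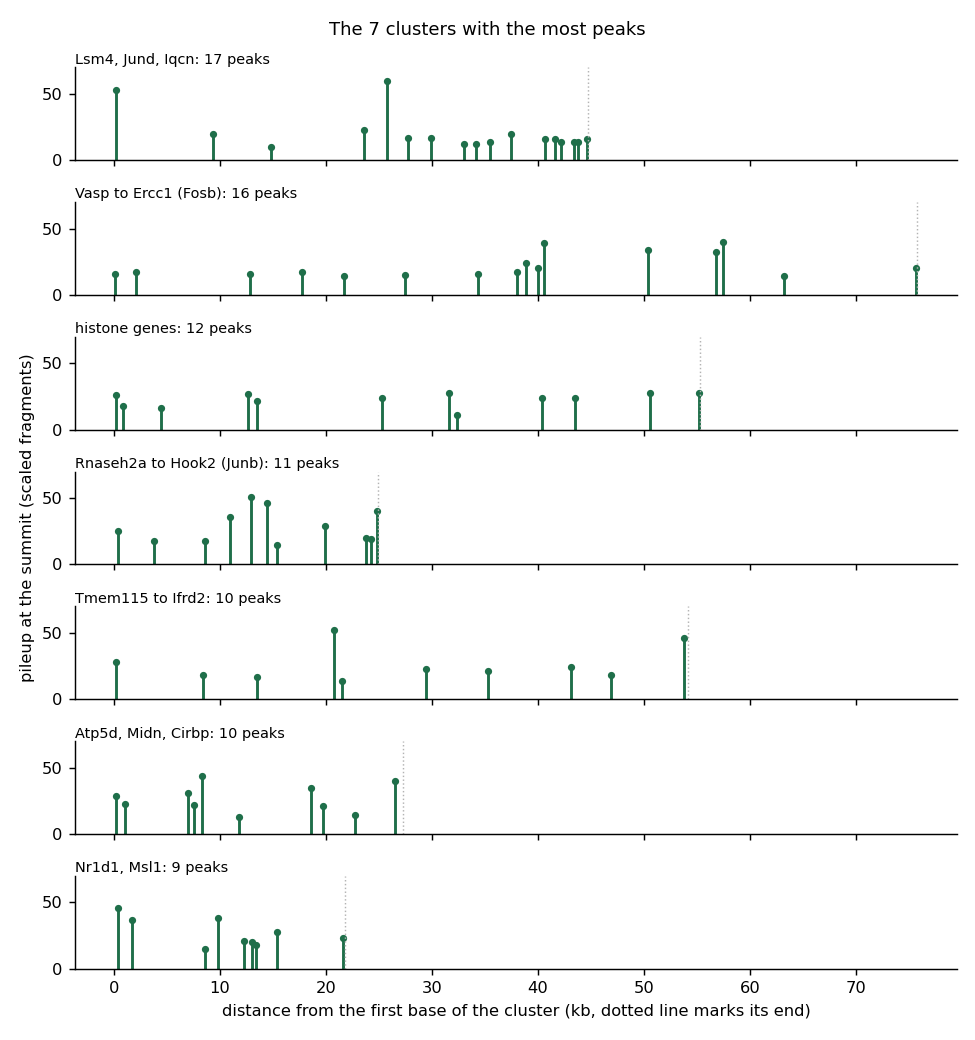
Each summit of the 7 clusters with the most peaks, by distance from the start of the cluster in kb and by pileup in scaled fragments. A dotted line marks the end of each cluster, and the longest, with Fosb, spans 75.8 kb.

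Counted per gene, 11475 of 20661 coding genes had a peak in the gene or within 10 kb (55.5%), and 8537 had one within 1 kb of either end (41.3%). Neighbours share peaks under the wider rule: 4815 of the 14704 peaks (32.7%) lay in or within 10 kb of 2 or more coding genes. Of the genes with a peak, 6670 had exactly 1, and 9 had 10 or more. Iqcn had the most, 14 peaks, for a gene of 16.3 kb next to Jund. Gse1, a chromatin co-repressor component, had 13 over 353 kb. Pakap, an anchor of protein kinase A, and Synpo, an actin-associated protein, had 11 each. Maml3, a coactivator of Notch signalling, Midn, Nfia, a nuclear factor I gene, and Rad51b, of DNA repair, were among those with 10. The share of genes with a peak was 16.3% under 2 kb of length and 67.1% from 50 to 200 kb, so some families below are set beside coding genes of like length outside them.

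Gene families differed widely around the share of 55.5%. All members had a peak in 3 of the 63 families listed: 19 of 19 genes with Atf or Creb symbols, 8 of 8 Smad genes and 7 of 7 Stat genes. The Atf and Creb symbols took in Crebbp, a coactivator and not such a factor, whose 2 peaks lay outside the gene body. Families of basic cell machinery with high shares were 19 of 20 splicing factors of the Srsf and Sf3 groups, 36 of 38 proteasome subunits, 30 of 32 snRNP and hnRNP proteins, and 40 of 44 translation initiation factors. Of 84 cytosolic ribosomal proteins 75 had one (89.3%), against 47.6% of genes of like length, with Rpl34 at a pileup of 57 and Rps21 and Rpl37 at 56. Of 57 replication-dependent histones, genes of about 0.487 kb, 49 had one (86.0%), against 10.3% of 29 genes of like length, but these 49 shared 15 distinct highest peaks.

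The Fos and Jun family had the most peaks per gene within 10 kb, 3.67, and 11 of its 12 members had one. Within gene bodies it had 1.58 per gene, under the 1.83 of the small Maf, Bach and Nrf genes and the 1.75 of the Kruppel-like factors, beside 0.595 over all coding genes. Jund had 9, Junb and Fosb 7 each, Jun 6, Fosl2 4, Fos and Jdp2 3 each, and Batf2 none, with 1 of the 9 at Jund and 1 of the 7 at Junb in the gene body. Their highest pileups were 66 at Jun, 60 at Jund, 57 at Fosl2 and 56 at Fos. Kruppel-like factors were at 14 of 16, with Klf6 at 71, and NF-kappaB genes at 9 of 10. Of the Smad genes, which carry TGF-beta and BMP signals, Smad3 had 6 peaks and Smad7, an inhibitor of the pathway, had 4. Their highest pileups were 28 and 27, under those of Smad6 (39), Smad2 (38) and Smad4 (38).

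Families of the extracellular matrix and its receptors differed among themselves. Of 42 collagens 23 had a peak (54.8%, 39.9 to 68.8), against 66.9% of genes of like length, and 7 had one within 1 kb of an end (16.7% against 41.3% of all). Col1a2 had 1, with a pileup of 43 and the summit 60 bp before its start, and Col1a1 had 3, the highest at 37. The peak of 49 within reach of Col7a1 lay at the start of its neighbour Pfkfb4. Genes with Adamts symbols were at 18 of 24 (95% interval 55.1 to 88.0%, against 66.2% of genes of like length). The symbols took in the Adamts-like genes (Adamtsl), which are not proteases. Without these, Adamts genes were at 15 of 19 (78.9%, 56.7 to 91.5, against 66.1%). Integrins were at 15 of 26 (57.7%, against 66.6%) and Mmp genes at 8 of 23 (34.8%, against 61.7%).

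Families best known from skin, sensory neurons, liver or defence had few peaks or none. None of 71 defensins, 56 keratin-associated proteins, 35 late cornified envelope and Sprr genes or 22 major urinary proteins had a peak. Among genes of like length the shares were 38.2%, 5.26%, 39.6% and 40.7%, so for the keratin-associated proteins the share of like genes was itself low. Of 1104 olfactory receptors 9 had one (0.815%, 0.429 to 1.54), all outside the gene body and none within 1 kb of an end, beside 12.8% of 156 genes of like length. Of these, the peak near Olfr15 lay at the start of Zfp174 and that near Olfr1416 at the start of Ndufa10. Vomeronasal receptors were at 3 of 352, Ly49 and Clr lectins at 1 of 37, kallikreins at 1 of 26 and keratins at 3 of 49. Genes with symbols of GABA and glutamate receptors, long genes with a median of 137 kb, were at 7 of 43 (16.3%), against 66.1% of genes of like length. The symbols took in Grid2ip and Grina, which are not such receptors, and Grina is 1 of the 7. Many of these families are tandem copies with near-identical sequence, and how reads that map to several places were treated is not stated in the labels or headers.

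**Figure D5:**
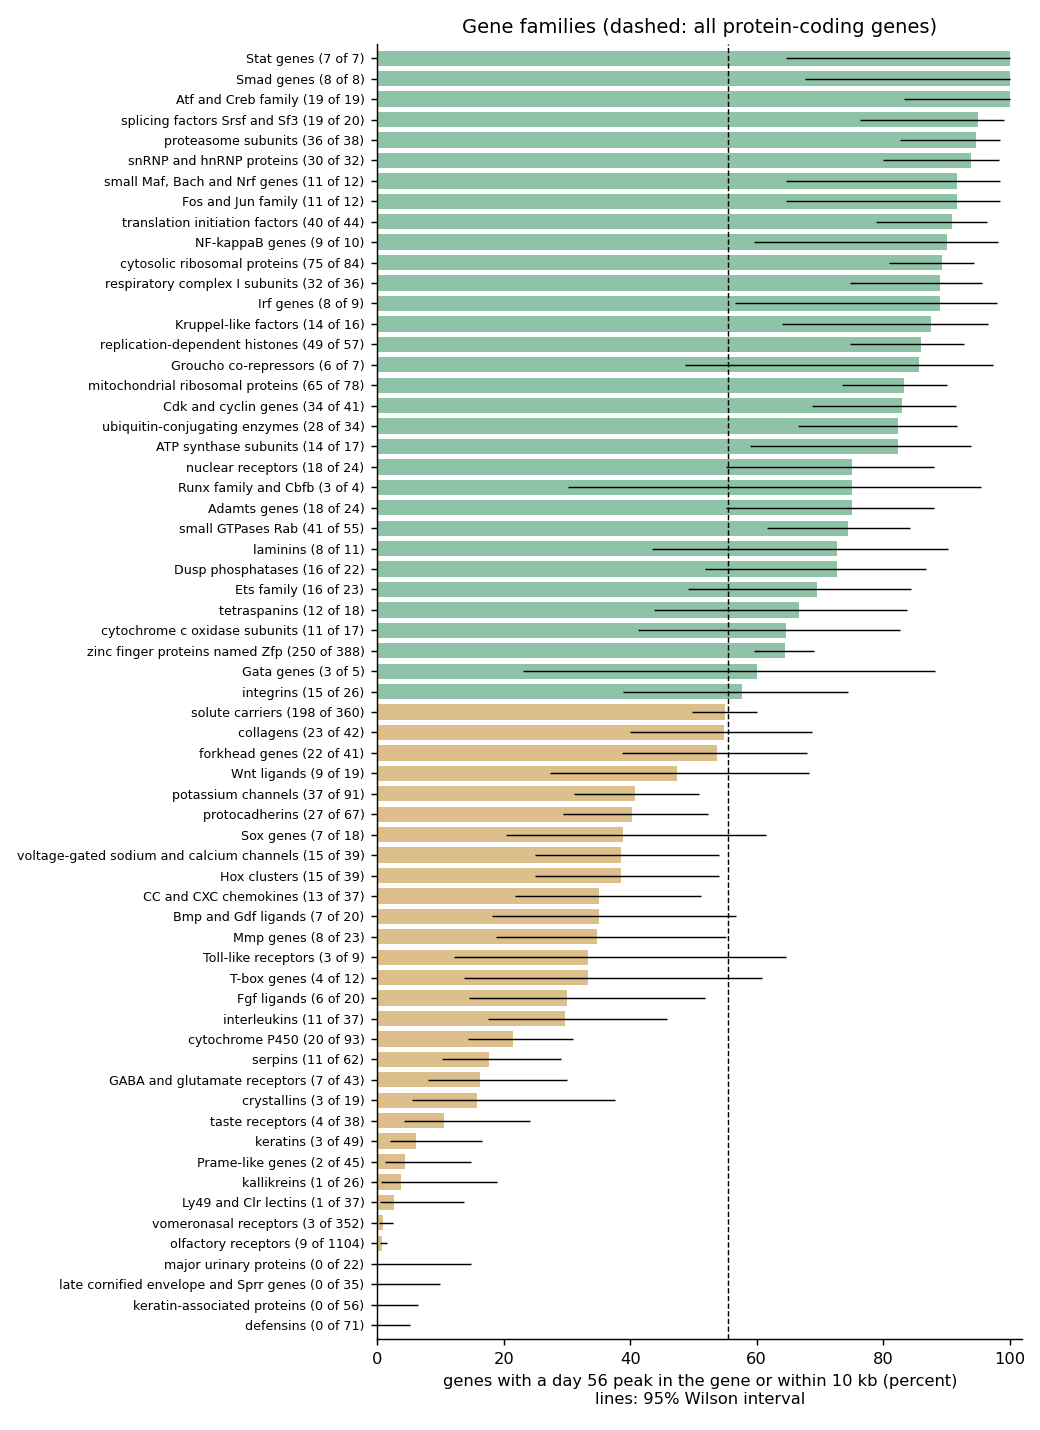
Percent of the genes of each of 63 families with a day 56 peak in the gene or within 10 kb, with 95% Wilson intervals, and the numbers in brackets. The dashed line is the share of all coding genes, 55.5%; green bars lie above it and sand bars below.

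A wider count by shared symbol stem gave the same kind of range. Of 266 stems with 10 or more coding genes (8257 genes), 20 had no gene with a peak (393 genes) and 15 had a peak at every gene. Complete stems included Med, the Mediator subunits that link factors to RNA polymerase II (28 of 28), Atg, of autophagy (17 of 17), Kdm, histone demethylases (15 of 15), and Ints, Trappc, Lsm, Psmd and Prpf. Stems with none included the serotonin receptors Htr (0 of 13, against 64.0% of genes of like length), the homeobox genes Nkx (0 of 14, against 50.5%), Ugt (0 of 22, against 64.7%), Prl (0 of 25, against 56.7%) and Psg (0 of 13, against 58.5%). Within the clustered protocadherins, Pcdha (0 of 12) and Pcdhb (0 of 22) had none, and all 12 of Pcdhga had one, with bodies that overlap each other and so share the same peaks. These stems were picked out after their values were seen.

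Small RNA genes were met by peaks unevenly. Peaks overlapped 74 of 391 tRNA genes (18.9%, 15.4 to 23.1), with a median length of 73 bp, against 2.82% of 1136 miRNA genes, 0.70% of snoRNA genes and 1.18% of snRNA genes. The 68 peaks at tRNA genes had a median pileup of 22, and 21 of them were within 1 kb of a coding gene's end. Pseudogenes were met in 0.473% of 8884 cases and lncRNA genes in 14.6% of 12408.

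The 3 Runx genes and Cbfb held 4 peaks, 1.00 per gene, beside 0.926 per coding gene. Runx1 had 2: 1 with a pileup of 39 at chr16:92697266-92697538, fold 8.50, with the summit 74 bp before its inner start, whose upstream stretch is printed above, and 1 of 14 at -1499 bp from that start. Its outer start had no peak. Runx2 had 1 peak (40), whose summit lay 65 bp before the start of Supt3, a neighbour that overlaps it. Cbfb had 1 peak of 27, 85 bp before its start, and Runx3 had none. Markers of lung cell types were counted beside the 55.5% of all coding genes. Of 14 fibroblast markers 11 had a peak. Col3a1 and Dcn had theirs outside the gene body, and the higher of the 2 near Mfap4 (42) lay 153 bp before the start of Mapk7. Pdgfra had a pileup of 15 at 95 bp before a start, and Tcf21, a mesenchymal factor, had 23 at 63 bp before its start. Lum, Pi16 and Cthrc1 had none. Endothelial markers had a peak at 4 of 8, pericyte and smooth muscle markers at 2 of 7, lymphocyte markers at 3 of 8, epithelial markers at 2 of 10, myeloid markers at 2 of 8, and mesothelial markers at 0 of 4. Among the markers of other cells, Pecam1 (21), Tek (30), Vwf (34), Erg (21), Foxj1 (14), Spi1 (14) and Kcnj8 (31) had peaks in the gene body. Ager, Cd3g, Cd79a, Cnn1, Cd68 and Nkg7 had theirs outside it. The highest near Cd68 (59) was at the start of Eif4a1 and that near Nkg7 (53) at the start of Etfb. A peak near a gene does not measure its expression, so these counts do not set the cell type.

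The sham list held 24611 peaks on the same chromosomes and the day 14 list 55378, from 48816721 and 78744701 tags against inputs of 39609538 and 49312043. Each list was called against its own input, and the genome-wide floor was 1.6 scaled fragments at day 56, 3.52 in sham and 3.48 at day 14, so that the numbers of peaks cannot be compared. The share of summits within 1 kb of a gene end was 44.3% in sham and 29.9% at day 14, but 55.0% and 59.6% in as many of their strongest peaks as day 56 held, beside 59.1% at day 56. No test of these differences was possible with 1 library each.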

How the data were processed

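The series measured Runx1 binding by ChIP-seq in sorted mouse lung fibroblasts, with 1 Runx1 library and 1 input per condition, and the day 56 list is used throughout. BWA, SAMtools, MACS2 and the build mm10 are named in the submitters' processing notes. Per the file headers, the authors called peaks with MACS 2.0.10.20120913 separately per library with the matching input as control, at a q-value threshold of 0.01, an effective genome size of 1.87 Gb, the larger library scaled to the smaller and local background taken over 1 and 10 kb. The deposited pileup is a signal at the summit in ChIP fragments scaled by 0.402, the ratio of input to ChIP tags, the deposited fold enrichment is a ratio to background, and the deposited −log10 p-values and q-values are the caller's own.

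From these, the expected background of each peak was solved from the listed p-value and pileup under a Poisson law. The listed fold was within 10% of (pileup + 1)/(background + 1) for all 14704 peaks. Summits were placed against RefSeq genes and start windows of GRCm38.p6, which is mm10, using Python 3.11.15, pandas 2.3.3 and scipy 1.17.1. A gene counted as holding a peak when one lay in it or within 10 kb, and peaks were joined into clusters within about 13 kb. Exons, introns and peak sequence outside the start windows were not analysed here. The steps were tested on simulated data. Groups came from the sample labels, and no test was made since each condition has 1 library. Shares carry 95% Wilson intervals.

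The members and lists were chosen with earlier results of these data known. The rule for named genes took the nearest named coding gene within 100 kb of the 20 highest pileups, the 10 highest folds, the 10 widest peaks and the 10 highest pileups over 10 kb from genes, the 10 genes with the most peaks, the genes of the 5 largest clusters, up to 4 members of each family, the Runx genes and the markers. 1 gene that this rule names is not reported here. Families were set by symbol patterns, of which 4 were tightened, and 1 family renamed, after seeing which names they matched. Genes named outside the rule (further Fos, Jun, Smad and receptor genes, the sixth cluster, covered genes and chromosome X) were chosen after their values were seen. Alternatives tried were a stricter q or fold, leaving out the 1% of peaks with the highest background, adding chromosome X, merging close peaks, and other distances.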

Additional observations from a re-analysis of the deposited data

Results flagged for a closer look

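The day 56 list also held 305 peaks on chromosome X, 2.03% of the whole list, which the account above does not use. They are given here because they are a signal in data outside the main measurement. Their median pileup was 19 and their median width 268 bp, beside 23 and 307 bp on chromosomes 1 to 19. The summit was within 1 kb of a gene end for 69.5% of them (95% Wilson interval 64.1 to 74.4), beside 59.1% on chromosomes 1 to 19. Of 966 coding genes on the chromosome, 284 had a peak in the gene or within 10 kb (29.4%), beside 55.5% on chromosomes 1 to 19. The highest pileups were at Kdm6a, a histone demethylase (45), Pgk1, of glycolysis (42), and Morf4l2 (41). The labels do not give the sex of the mice.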

How the results depend on the processing

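Peak number and the number of coding genes with a peak stayed within 1.5 times the reported values under every alternative tried for them, the gene count running from 8537 to 11759. The median width was 331 bp at −log10 q of 5 or more, 337 bp at a fold of 5 or more and 322 bp with close peaks merged. The share of peaks with a neighbour was 34.6%, 31.3% and 32.0% under the same 3 settings, and 25.7% within 5 kb and 72.4% within 50 kb. The share near a gene end was 62.8% at the stricter q, 63.4% at the stricter fold, 67.0% within 2.5 kb, 53.8% for coding genes only and 60.3% when any part of the peak counted. Families with no peak numbered 7 when only peaks within 1 kb of a gene end counted, and 4 to 6 otherwise. With quartiles of fold in place of pileup, CCAAT was in 34.5% of the lowest and 57.0% of the highest quartile. That alternative, 1 window per gene, low-background peaks alone and CpG-rich windows alone were chosen after seeing the data. Of the 63 families, 63 kept their side of the share of all coding genes at the stricter q and in gene bodies, 62 at the stricter fold and 58 within 1 kb of gene ends. Counted in gene bodies, the Fos and Jun family had 1.58 peaks per gene in place of 3.67, a count chosen after seeing the data. No paired analysis was possible because each condition has 1 library and no test was made. With an input of 19949187 tags the floor was 1.6 scaled fragments, and no peak had a pileup under 10.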
